A study of Mus musculus with 4 samples.

Results

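The proteasome genes measured here were those whose symbol begins with Psma, Psmb, Psmc, Psmd, Psme or Psmg followed by a digit, on probe sets that the platform annotation ties to a single symbol. This rule found 47 of the 12393 mouse genes that had a probe set of their own. Of these, 45 encode subunits, activators or assembly chaperones of the proteasome, and Psmc3ip and Psme3ip1 match the rule only by name. Expression was measured in mouse heart on 4 arrays, 1 per group, each carrying pooled RNA. The labels name the left ventricle for both null pools and cardiac muscle for the wild-type sham pool, and give no tissue for the wild-type banded pool. Wild-type mice and IL-18 null mice, which lack the cytokine gene, each had a sham-operated group and a group with transaortic banding, a constriction of the aorta that makes the left ventricle pump against a raised pressure. The labels give a C57BL/6 background for the banded IL-18 null mice, pools of 5 sham and 6 banded IL-18 null mice, and 1 week of constriction for the banded IL-18 null pool. For the wild-type mice the strain and the time of banding are not given in the sources used here, and the design text gives 5 to 6 mice per pool. The series asks how IL-18, an inflammatory cytokine, bears on gene expression in hypertrophy from pressure overload.

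The proteasome is the protease that degrades most short-lived and damaged proteins after they have been tagged with ubiquitin. Its 20S core is a barrel of stacked rings: alpha subunits form the outer rings and gate the entry, and beta subunits form the inner rings, where Psmb5, Psmb6 and Psmb7 carry the catalytic sites. The 19S regulatory particle caps the barrel; its base holds ATPases that unfold the substrate and its lid removes the ubiquitin chain. In cells exposed to interferon gamma, Psmb8, Psmb9 and Psmb10 replace the constitutive catalytic subunits to form the immunoproteasome, which favours peptides for class I antigen presentation. In heart muscle the proteasome is known for the turnover of contractile proteins and for protein quality control under load.

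With 1 pooled array per group there is no replicate error, no comparison of 2 arrays has a p-value, and every difference below describes these arrays. Levels are log2 intensities, differences are log2 differences, and a gene counts as different when it passes 2-fold, a log2 difference of 1. Intensities below 64 (log2 6, the floor) were set to 64 before differences were taken, so a difference with an array below the floor is a bound, written "at least". Of the 47 genes, 38 reached the floor on at least 1 array and 32 on all 4, and 9 lay below it on every array. In bulk tissue, fewer cells of a type and less RNA per cell cannot be told apart.

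The wild-type sham array stood apart from the others. Across the 38 measured proteasome genes it correlated at r from 0.788 to 0.875 with the other arrays, which correlated at r from 0.934 to 0.969 with each other. Over all 5158 measured genes the ranges were similar, 0.774 to 0.871 and 0.927 to 0.952. The points are genes of the same arrays, not replicates. Its control probe sets had the weakest signal in the middle of the transcript: the 3′ minus middle difference of Gapdh was 4.61 there, -0.16 after banding in wild type, and in the null mice 2.73 (sham) and 1.66 (banded). For Actb the same differences were 4.88, 2.01, 4.69 and 4.57, so there the wild-type banded array was the one with most signal from the middle. Such a difference is used to gauge how far labelled RNA reached from the 3′ end. The 3′ signal itself was also lowest in wild-type sham. In the same order of arrays it was 11.0, 13.9, 13.4 and 13.6 for Gapdh and 9.0, 12.9, 11.1 and 11.3 for Actb. The Gapdh 3′ minus 5′ difference was 4.96, 0.21, 5.13 and 4.36, so on that measure wild-type banded stood apart and null sham was highest. For Actb it was 5.81, 1.92, 3.04 and 2.92, highest in wild-type sham and lowest in wild-type banded. The wild-type arrays thus differed in both genes and by each measure, and the part of this in the results below was not tested. The deleted gene, Il18, was below the floor on all arrays (log2 2.89 to 3.19) and did not check the genotype labels. All 10 cardiomyocyte markers examined, among them Myh6, Tnnt2 and Actc1, were at or above the floor on every array. So were the 3 atrial markers, Sln, Myl7 and Myl4, with summed intensities of 1552 and 3919 on the wild-type arrays (sham, banded) and 1765 and 2097 on the null arrays.

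Between the wild-type arrays, 19 of 38 measured proteasome genes were higher by 2-fold or more in banded than in sham and 0 were lower. The background over all 5040 genes measured in that comparison was 21.7% higher and 12.8% lower. The members' median difference was 1.01, against -0.08 for all genes. Of the 19, 7 belong to the core, 6 to the base and 3 to the lid, and the others are Psme1, Psmg2 and Psme3ip1. Their median was 2.17 and their range 1.07 to 3.83 over all 19; for 4 (Psmc1, Psmd3, Psmd8 and Psme3ip1) the difference is a bound. A further 12 members lay slightly below 0, between -0.75 and -0.07, and the other 7 lay between 0.07 and 0.95. Subunits that assemble into the same particle thus lay far apart in the same comparison, from Psmd14 at -0.75 to Psmd8 at 3.83 or more. After quantile normalization of the arrays, which moved the median of all genes from -0.08 to -0.42, 16 members were higher, 1 was lower and the median was 0.77, and the split of all genes turned from 1096 higher and 647 lower to 852 and 1272. Psma1, Psmc3 and Psme1 were those no longer past 2-fold, at 0.85, 0.93 and 0.82.

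**Figure D1:**
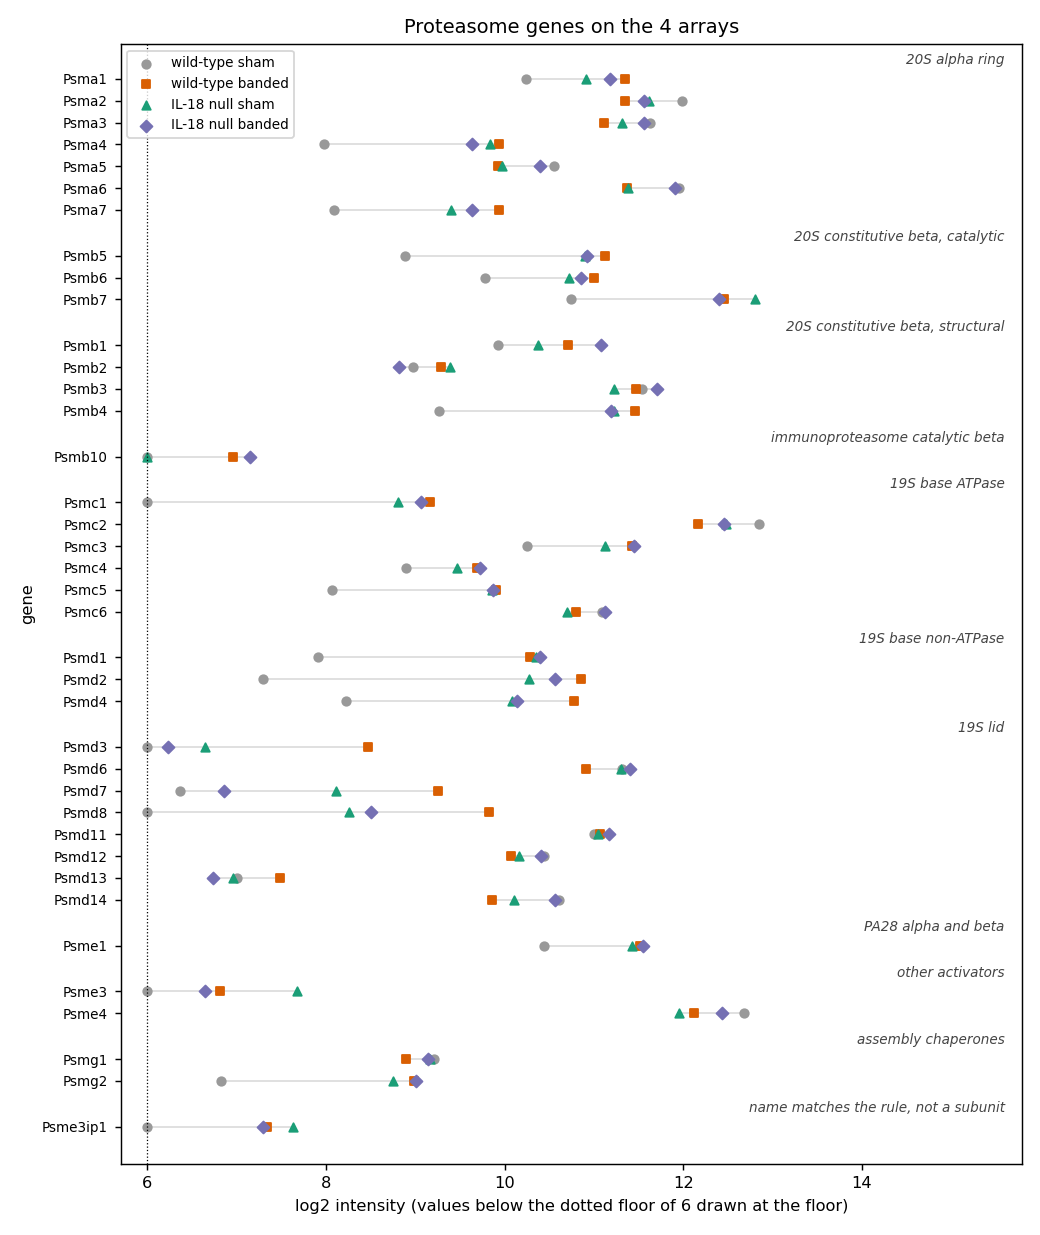
Log2 intensity (horizontal axis) of the 38 measured proteasome genes (rows, grouped by place in the complex) on the 4 arrays, 1 symbol per array; values below the floor of 6 are drawn at the dotted line. Wild-type sham (grey circles) is the lowest array, or tied at the floor, for 24 of the 38 genes, with the other 3 arrays close together for most. Levels of different genes come from different probes and are not compared.

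Between the IL-18 null arrays few of the same genes passed 2-fold, as was so for all genes. Of 38 measured members 1 was higher by 2-fold or more with banding, against a background of 6.98% of 4827 genes, and 2 were lower, against 2.53%. The median was 0.13, beside 0.08 for all genes. The member that was higher was Psmb10, and the lower ones were Psmd7 and Psme3. Wild-type sham was the lowest array for 24 of 38 members (63.2%), compared with 39.6% of all 5158 genes measured, and the highest for 9 (23.7%), compared with 38.0%. A gene below the floor in wild-type sham and on another array was counted as lowest in wild-type sham, in both shares. All 4 arrays were at the floor or above for 32 of 38 members and for 3991 of the 5158 genes. Over the other 3 arrays alone, 33 of 38 members (86.8%) stayed within a 2-fold range, compared with 80.9% of all genes; over all 4 arrays 16 of 38 (42.1%) did, compared with 57.5%.

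**Figure D2:**
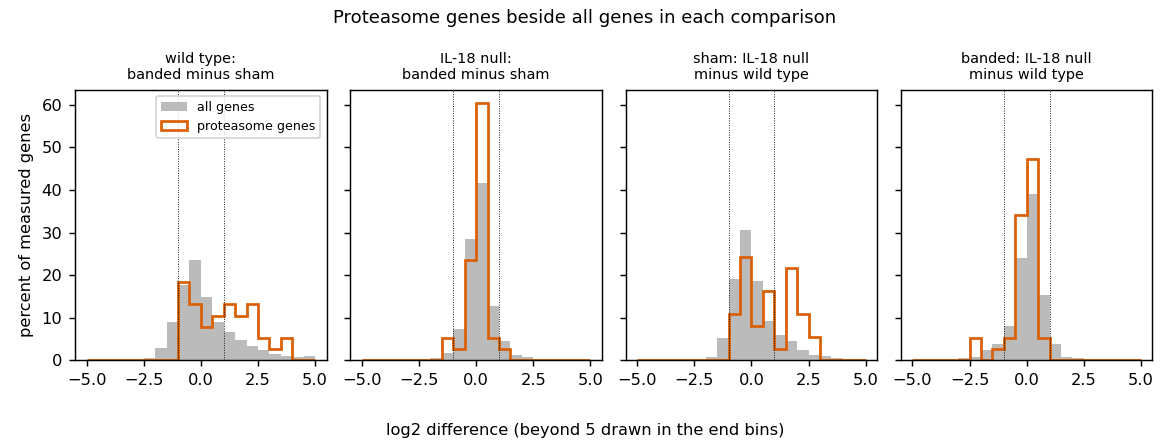
Log2 differences of the measured proteasome genes (orange outline) and of all measured genes (grey) in the 4 array pairs, as percent of genes per bin of 0.5, with dotted lines at 2-fold. The proteasome genes reach from -0.75 to 3.83 between the wild-type arrays and from -0.73 to 2.99 between the sham arrays, while in the pair of IL-18 null arrays their median is 0.13.

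All 3 catalytic subunit genes of the constitutive core were higher by 2-fold or more in wild-type banded than in wild-type sham, and none passed 2-fold between the IL-18 null arrays. For this and the class counts below, the background over all genes was 21.7% higher and 12.8% lower in wild-type banding. It was 6.98% and 2.53% in IL-18 null banding. Psmb5, the chymotrypsin-like site that bortezomib binds, had log2 intensities of 8.89, 11.13, 10.90 and 10.93 on the wild-type arrays (sham, then banded) and the null arrays (sham, then banded), the order kept below. Psmb6, the caspase-like site, was at 9.78, 11.01, 10.72 and 10.86. Psmb7, the trypsin-like site, was at 10.74, 12.46, 12.80 and 12.41. In each of the 3 genes wild-type sham was the lowest array, by 0.94 or more, and the other arrays lay within 0.39 of each other. The wild-type banding differences were 2.24, 1.23 and 1.72 (4.72-fold, 2.34-fold and 3.3-fold), whereas those in IL-18 null were 0.03, 0.14 and -0.39.

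The stretches upstream of these genes are shown because the catalytic subunit genes were higher together between the wild-type arrays, and because many proteasome genes are known to be induced through antioxidant response elements bound by Nfe2l1. The RefSeq promoter table of build GRCm38.p6 held 39 of the 47 genes; Psmb7 is not among them. Printed are the 250 bases before the annotated start, 5′ to 3′ on the gene's own strand, with capitals for the motifs searched. Psmb5 lies at chr14:54617996-54618245, minus strand, and Psmb6 at chr11:70525107-70525356, plus strand; their capitals mark the antioxidant response core, TGACNNNGC. Psma3, an alpha subunit gene whose arrays lay within 0.52 of each other, is shown for comparison (chr12:70974373-70974622, plus strand), with a CCAAT box in capitals.
Psmb5: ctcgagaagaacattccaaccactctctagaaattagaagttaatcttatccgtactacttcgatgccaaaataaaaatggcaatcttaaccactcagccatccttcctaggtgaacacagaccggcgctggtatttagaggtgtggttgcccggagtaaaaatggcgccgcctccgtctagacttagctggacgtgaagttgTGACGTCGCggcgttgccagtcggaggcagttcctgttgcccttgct
Psmb6: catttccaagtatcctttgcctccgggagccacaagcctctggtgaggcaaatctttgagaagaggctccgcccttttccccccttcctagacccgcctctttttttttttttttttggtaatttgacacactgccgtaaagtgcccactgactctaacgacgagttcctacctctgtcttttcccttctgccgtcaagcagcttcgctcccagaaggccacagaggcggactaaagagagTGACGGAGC
Psma3: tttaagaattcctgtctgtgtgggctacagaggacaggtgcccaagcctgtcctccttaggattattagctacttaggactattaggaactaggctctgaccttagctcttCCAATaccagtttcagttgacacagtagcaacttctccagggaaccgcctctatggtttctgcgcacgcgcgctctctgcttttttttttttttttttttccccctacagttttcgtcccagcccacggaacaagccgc
The antioxidant response core was found on the printed strand in Psmb5, starting 47 bases before the start, and in Psmb6, starting 9 bases before it. Searched on both strands, it stood in 5 of the 39 proteasome windows (12.8%): those of Psmb5, Psmb6, Psmc6, Psmd9 and Psmd12. Among all 27025 genes of the table the share was 11.5%, so the letters alone were about as frequent there. The 4 measured genes with the core had a median wild-type banding difference of 0.46 and the 27 measured genes without it one of 0.81; in IL-18 null the medians were 0.19 and 0.13. CCAAT stood in 15 of 39 windows (38.5%, all genes 37.5%) and TATAAA in 4 (10.3%, all genes 14.3%). The interferon-stimulated response core (a repeat of GAAA spaced by any 2 bases) stood in 3 windows (7.69%, all genes 3.46%), those of Psmb3, Psmd4 and Psmd9. The median GC content of the windows was 57.6%, compared with 52.4% for all genes. A match describes letters only and shows no binding.

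The structural beta subunits varied more. Psmb4, the last subunit to join the beta ring, was at 9.27, 11.46, 11.23 and 11.19, again lowest in wild-type sham, with differences of 2.19 in wild-type banding and -0.03 in IL-18 null banding. Psmb1 was at 9.93, 10.71, 10.37 and 11.08. It was higher in banded than in sham in both genotypes, by 0.78 and 0.71, under 2-fold each time. Psmb3 was at 11.54, 11.47, 11.23 and 11.71. Psmb2 was at 8.97, 9.29, 9.39 and 8.82. Both kept within 0.57 over the 4 arrays, and Psmb2 was the only measured beta subunit with its lowest value in IL-18 null banded.

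Of the 7 measured genes of the alpha ring, 3 were higher by 2-fold or more in wild-type banding (background 21.7%). Psma4 was at 7.97, 9.94, 9.84 and 9.64. Psma7 was at 8.09, 9.94, 9.40 and 9.63. Psma1 was at 10.25, 11.35, 10.92 and 11.18. All 3 were lowest in wild-type sham, with the other arrays within 0.54 of each other. Their differences were 1.97, 1.84 and 1.10, and in IL-18 null -0.21, 0.24 and 0.26. With the mean of all 3 of its probe sets, of which the others lay below the floor on every array, Psma1 turned to -0.70 in wild-type banding. The other 4 went slightly the other way: Psma2, Psma5, Psma6 and Psma3 were highest in wild-type sham, at 11.98, 10.56, 11.95 and 11.63, and differed by -0.63, -0.63, -0.58 and -0.52 in wild-type banding. Psma3 was at 11.63, 11.11, 11.32 and 11.56. The ring's median was -0.52 in the wild-type and 0.24 in the null pair. Psma8, the alpha subunit of the testis, lay below the floor on all arrays.

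The 19S base showed large differences between the wild-type arrays, in both its scaffolds, a ubiquitin receptor and some of its ATPases. Psmd2, the scaffold that also docks ubiquitin shuttles, was at 7.29, 10.86, 10.28 and 10.57. Psmd1, the other large scaffold, was at 7.91, 10.29, 10.35 and 10.40. Psmd4, a ubiquitin receptor, was at 8.22, 10.78, 10.09 and 10.14. All 3 were lowest in wild-type sham and passed 2-fold in wild-type banding, by 3.57, 2.38 and 2.55. In IL-18 null banding they differed by 0.29, 0.04 and 0.05 on the probe sets used. The other measured probe set of Psmd4 was below the floor in wild-type sham and at 9.21, 7.58 and 6.48 on the others. It differed by at least 3.21 in wild-type banding and by -1.11 in IL-18 null banding.

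Among the 6 ATPases of the base, 3 passed 2-fold in wild-type banding. Psmc1 was below the floor in wild-type sham and at 9.16, 8.81 and 9.06 on the other arrays, a difference of at least 3.16. Psmc5 was at 8.07, 9.90, 9.86 and 9.87. On the arrays other than wild-type sham Psmc5 spanned 0.04, the narrowest range of the measured members. Psmc3 was at 10.25, 11.42, 11.12 and 11.45, past 2-fold in wild-type banding, and higher in banded than in sham in both genotypes. Psmc4 was at 8.90, 9.70, 9.47 and 9.72, under 2-fold. On the probe sets used, Psmc2 was at 12.85, 12.17, 12.47 and 12.46 and Psmc6 at 11.10, 10.80, 10.70 and 11.13. Both were lower there in wild-type banded than in sham, with differences of -0.68 and -0.30. Another probe set of Psmc2 went the other way in wild-type banding, at 0.90, and so did another of Psmc4, at -0.40. Other Psmc6 probe sets differed by -1.07 and, with wild-type banded below the floor, by -0.21. For the base as a whole, 6 of 9 genes were higher and 0 lower in wild type (median 1.84), and 0 of 9 passed 2-fold in IL-18 null (median 0.25).

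On the probe sets used, the lid held the members that differed between the banded arrays as well. Psmd7, which pairs with the deubiquitinase of the lid, was at 6.37, 9.26, 8.12 and 6.85: high in wild-type banded, intermediate in IL-18 null sham and low in the others. It was the only member past 2-fold in all 4 array pairs, with 2.89 in wild-type banding, -1.26 in IL-18 null banding, 1.75 between the sham arrays and -2.40 between the banded ones. Psmd8 was below the floor in wild-type sham and at 9.83, 8.26 and 8.50 on the others, at least 3.83 higher in wild-type banding and -1.32 in IL-18 null banded relative to wild-type banded. Psmd3, a further lid subunit, was just below the floor in wild-type sham (intensity 63.8) and at 8.47, 6.64 and 6.23 on the others. Only wild-type banded was clearly above the floor for Psmd3, and the genotype difference between the banded arrays was -2.24.

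The other 5 lid genes kept within 0.75 over the 4 arrays on the probe sets used. Psmd14, the deubiquitinase that cuts the ubiquitin chain from the substrate, was at 10.61, 9.86, 10.10 and 10.57, with its lowest value in wild-type banded. Psmd13 was at 7.0, 7.49, 6.96 and 6.74. Its other measured probe set was below the floor in wild-type sham and at 8.65, 6.67 and 6.43 on the others. That probe set differed by at least 2.65 in wild-type banding and by -2.22 between the banded arrays. Psmd11, whose abundance is known to limit 26S assembly in some cells, was at 11.0, 11.07, 11.04 and 11.17, the narrowest range of the class on the probe set used. Its other measured probe sets differed by 2.26, 0.28 and -0.99 in wild-type banding. Psmd6 and Psmd12 differed by -0.41 and -0.37 in wild-type banding. In all, 3 of 8 lid genes were higher (background 21.7%) and 0 lower (12.8%) in wild-type banding, with a median of 0.28. In IL-18 null banding 0 were higher (background 6.98%) and 1 lower (2.53%), with a median of 0.11.

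Of the immunoproteasome genes only Psmb10 reached the floor. Its log2 intensity was 4.89, 6.95, 5.75 and 7.15, so both sham arrays lay below the floor and both banded arrays above it. With the floor, it was at least 0.95 higher with banding in wild type and at least 1.15 in IL-18 null, where it was the single member past 2-fold upwards; without the floor the differences were 2.06 and 1.39, both past 2-fold, and with a floor at log2 7 the IL-18 null difference was 0.15. Psmb8 was at 2.98, 5.49, 5.31 and 5.31 and Psmb9 at 2.96, 2.77, 2.87 and 2.96, all below the floor, so no difference is given for them. In the RefSeq annotation Psmb9, Tap1, Psmb8 and Tap2 follow one another on the chromosome; the transporter genes Tap1 and Tap2 were below the floor on all arrays too. Psmb11, of the thymus, was not analysed here.

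The stretch before the annotated start of Psmb10 (chr8:105938393-105938642, minus strand) is printed because this gene was the one whose signal crossed the floor with banding in both genotypes. The window holds no antioxidant response core, CCAAT box, no TATAAA and no interferon-stimulated response core on either strand, and so has no capitals.
Psmb10: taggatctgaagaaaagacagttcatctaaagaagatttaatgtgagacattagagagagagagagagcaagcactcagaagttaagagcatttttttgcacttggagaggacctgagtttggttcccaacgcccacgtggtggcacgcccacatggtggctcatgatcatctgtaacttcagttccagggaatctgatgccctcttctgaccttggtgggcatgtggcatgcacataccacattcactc

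The mean log2 intensity of Psmb8, Psmb9 and Psmb10 minus that of Psmb5, Psmb6 and Psmb7 was -3.80, -5.21, -5.47 and -5.02 in the usual order of arrays. Psmb8 and Psmb9 stood at the floor throughout, and Psmb10 on both sham arrays, so these values are set by the floor. Without it they were -6.19, -6.46, -6.83 and -6.26, and no direction is read from them.

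Other genes of interferon signalling and of antigen presentation gave a mixed picture. For the list counts here and below, the background over all genes was 21.7% higher and 12.8% lower in wild-type banding. In IL-18 null banding it was 6.98% higher and 2.53% lower. Irf1, an interferon-induced transcription factor, was at 6.88, 9.39, 8.17 and 9.74, higher in both banded arrays by 2.51 and 1.57, as Psmb10 was. Ifit3, an antiviral gene, was at 7.52, 7.03, 7.07 and 8.85 and Cxcl10, a chemokine, at 5.76, 4.23, 4.97 and 8.09, both highest in IL-18 null banded. Gbp3, a guanylate-binding protein, was at 8.75, 6.93, 7.38 and 7.54, highest in wild-type sham. Of the interferon response list, 1 of 8 measured genes was higher by 2-fold or more and 1 lower in wild-type banding (median -0.42), and 5 of 10 were higher and 0 lower in IL-18 null (median 0.76). Class I antigen presentation genes showed 4 of 7 higher, with 0 lower, in wild type (median 2.58) and 1 of 7 higher in the null mice (median 0.41). In that list H2-D1, a class I heavy chain, was at 5.64, 11.65, 10.44 and 11.02, and Tapbp, which loads peptides onto class I molecules, at 4.65, 8.58, 7.85 and 8.10. The chaperones Calr and Pdia3 of the same loading complex were at 7.31, 12.01, 10.96 and 12.05 and at 3.10, 10.12, 9.27 and 9.62. All 4 were lowest in wild-type sham.

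Macrophages carry immunoproteasomes, and some of their markers were higher with banding, as Psmb10 was. Of 10 macrophage markers, 5 of 9 measured were higher by 2-fold or more and 0 lower in wild-type banding, and 6 of 9 were higher and 0 lower in IL-18 null. Another 4 had wild-type values below 0 within 2-fold: -0.67 for Csf1r, -0.51 for Mpeg1, -0.30 for Adgre1 and -0.03 for Cd14. The list's summed intensity was 3246, 6069, 3582 and 10244 in the order of arrays, lowest in the sham arrays as Psmb10 was. Of 8 T and NK cell markers 2 reached the floor, Cd3e and Cd4, and the sum of the list was highest in wild-type sham, at 337, against 188 to 233 on the other arrays. Of 5 B cell markers Ighm alone reached the floor, with sums from 84.6 to 110.0. Fibroblast markers had 4 of 6 higher and 0 lower with banding in each genotype, endothelial markers 3 of 7 higher in wild type, 0 of 5 in the null mice, and atrial markers 1 of 3 and 0 of 3, each with 0 lower. The part of these cells in the Psmb10 difference was not tested.

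PA28 is a ring of Psme1 and Psme2 that opens the core without ATP and is induced by interferon gamma. Psme1 was at 10.44, 11.51, 11.42 and 11.55, lowest in wild-type sham, and differed by 1.07 in wild-type banding and by 0.13 in IL-18 null banding. The probe set for Psme2 is shared in the annotation with Psme2b and so is no member. Psme3, the PA28 gamma of the nucleus, was below the floor in wild-type sham and at 6.81, 7.67 and 6.64 on the others. It was highest in IL-18 null sham and differed by -1.03 with banding in IL-18 null and by at least 0.81 in wild type; the IL-18 null difference was -0.67 with a floor at log2 7 and -0.26 with the mean of its probe sets. Psme4, the large activator PA200, was at 12.68, 12.12, 11.96 and 12.44 and stayed within 0.73.

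Assembly chaperones were mostly too dim to compare: 5 of 7, namely Psmd5, Psmd9, Psmd10, Psmg3 and Psmg4, lay below the floor on every array. Psmg2, which with Psmg1 pairs alpha subunits during ring assembly, was at 6.82, 8.99, 8.75 and 9.01. Psmg1 was at 9.21, 8.90, 9.17 and 9.14. The partners thus differed in wild-type banding, by 2.17 and -0.32, and neither passed 2-fold in IL-18 null (0.26 and -0.03). Psme3ip1, a nuclear binding partner of PA28 gamma, was below the floor in wild-type sham and at 7.34, 7.63 and 7.29 on the others.

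The banding differences of the genotypes were also set side by side, since they share no array. Across the 38 members the Pearson correlation was -0.25 and the Spearman correlation -0.28, compared with -0.09 and -0.08 over 4709 genes; the points are genes of the same 4 arrays. The difference of the banding responses, IL-18 null minus wild type, was past 2-fold upwards for 4 of 38 members (background 20.4%) and downwards for 17 (background 21%), with a median of -0.87 against 0.16 for all genes. Downward values included -4.15 for Psmd7 and -3.28 for Psmd2, and bounds for Psmd8 and Psmc1, which were below the floor in wild-type sham: -3.59 and -2.91 with the floor, -6.05 and -4.83 without it. On the probe sets used, the 4 upward ones were Psmd14 at 1.21, Psma6 at 1.11, Psma5 at 1.05 and Psme4 at 1.04. Other measured probe sets were at 0.21 and 0.56 for Psma6 and at 0.40 for Psma5. Those of Psme4 were at 0.26 and -6.41, the last a bound with wild-type sham below the floor. The number upwards was 2 with arrays centred on their medians or with the mean of all probe sets, and 0 without probe sets shared between transcripts.

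**Figure D3:**
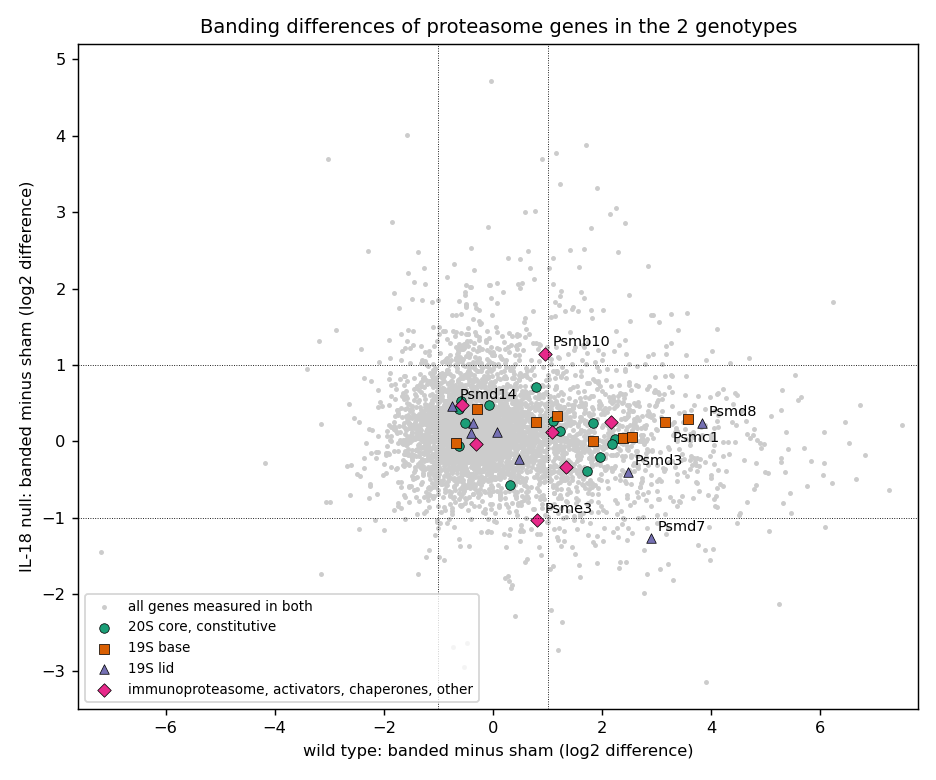
Banded minus sham log2 difference in wild type (horizontal axis) and in IL-18 null (vertical axis) for the 38 measured proteasome genes (coloured symbols by class) and all 4709 genes measured in both (grey); dotted lines mark 2-fold. The proteasome genes spread from -0.75 to 3.83 along the wild-type axis and lie within 2-fold on the IL-18 null axis except Psmb10, Psmd7 and Psme3.

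Between the sham arrays, 15 of 37 measured members were higher by 2-fold or more in the null than in the wild-type mice and 0 lower, beside backgrounds of 16.3% and 6.29% of 4851 genes. This comparison subtracts the same wild-type sham array as wild-type banding and is not independent of it. Values from both, sham genotype first, were 2.99 and 3.57 for Psmd2, 2.44 and 2.38 for Psmd1, 2.06 and 1.72 for Psmb7, 2.01 and 2.24 for Psmb5, and 0.64 and 2.47 for Psmd3, the last a pair of bounds. The members' median was 0.67, against -0.07 for all genes.

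Between the banded arrays few proteasome genes passed 2-fold on the probe sets used, as was so for all genes. Of 38 measured members 0 were higher by 2-fold or more in the null than in the wild-type mice, beside a background of 5.7% of 4947 genes, and 3 were lower, beside 7.74%. The median was 0.02, against 0.11 for all genes. The 3 lower genes were Psmd7, Psmd3 and Psmd8, all of the lid. With probe sets chosen by the mean of linear intensities, which swaps the probe sets of Psma7 and Psmd13, the number lower was 5. The genes added were Psma7 of the alpha ring, at -1.18, and Psmd13 of the lid, at -2.22. Other measured probe sets of Psmd4, Psme4 and Psmg2, which are not lid genes, differed by -2.73, -1.81 and -1.12. Of 15 genes with several measured probe sets, 5 had some past 2-fold in this pair and some not. Past 2-fold in opposite directions were 0.

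Probe sets of the same gene often disagreed between the wild-type arrays. Of 15 proteasome genes with several measured probe sets, 6 had some past 2-fold and some not in wild-type banding, with a median spread of 1.19 between the lowest and the highest, and 3 of 15 did in IL-18 null banding, with a median spread of 0.35. Between the sham arrays 5 of 15 did, with a median spread of 1.03, and between the banded arrays 5 of 15, with 0.48. The spread was widest for Psme4. The probe set with the highest mean was at 12.68, 12.12, 11.96 and 12.44 and another at 11.49, 11.47, 11.67 and 11.91, but the remaining one was at 5.51, 10.99, 10.60 and 9.18, a difference of at least 4.99 in wild-type banding. For Psmb3 the brighter probe set was nearly level, at 11.54, 11.47, 11.23 and 11.71, while the other was below the floor in wild-type sham (unfloored 3.19, 9.14, 8.30 and 9.13). Psmb4 went the other way: its brighter probe set differed by 2.19 in wild-type banding and its other one, at 10.56, 10.50, 10.50 and 10.74, by -0.06. The choice of probe set therefore decides which of these genes count as higher, and where each probe set lies on its transcript was not analysed here.

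**Figure D4:**
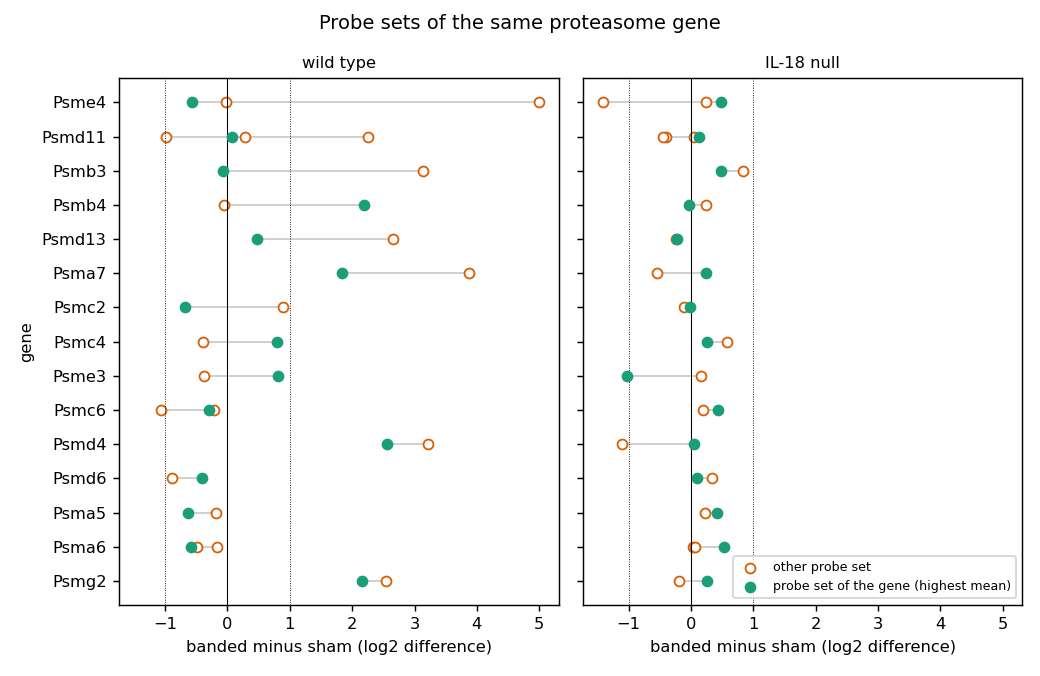
Banded minus sham log2 difference of every measured probe set of the 15 proteasome genes with several (rows, ordered by spread in wild type), in wild type (left) and IL-18 null (right); filled circles are the probe set with the highest mean and open circles the others. The spread reaches 5.56 in wild type (Psme4) and 1.89 in IL-18 null.

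Genes that work with the proteasome were listed by role and counted the same way. The backgrounds were again 21.7% higher and 12.8% lower in wild-type banding, and 6.98% and 2.53% in IL-18 null banding. Of 6 measured proteasome genes named outside the rule, 0 were higher by 2-fold or more and 1 lower in wild-type banding (median 0.13), and none passed 2-fold in IL-18 null (median 0.15). The lower gene was Uchl5, a deubiquitinase that binds the regulatory particle, at 9.62, 8.15, 8.78 and 9.0. Sem1, a small lid subunit, was at 11.93, 11.48, 11.21 and 12.02, and Ecpas, which binds the 26S proteasome, at 9.08, 9.84, 9.30 and 9.38. Among shuttle and unfoldase genes 4 of 8 were higher and 1 lower in wild-type banding (median 0.78), and 0 of 8 passed 2-fold in IL-18 null (median -0.22). Vcp, the ATPase that extracts ubiquitinated proteins, was at 4.84, 12.07, 10.91 and 11.04, below the floor in wild-type sham, and its cofactor Nsfl1c was at 7.39, 10.22, 9.72 and 9.41. Ubqln4 was at 2.70, 7.78, 7.41 and 7.0; Ubqln2, a related ubiquitin shuttle, was the lower one, at 9.35, 7.90, 8.51 and 8.33.

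Of 5 measured muscle ubiquitin ligases, 2 were higher and 0 lower in wild-type banding (median 0.93) and none passed 2-fold in IL-18 null (median 0.17). Trim54, of the muscle RING finger family, was at 8.15, 11.67, 10.72 and 10.88, and Stub1, a ligase for chaperone clients, at 8.48, 9.78, 8.86 and 9.17. Mdm2, the ligase for p53, was at 6.92, 7.85, 8.0 and 8.03, and Nedd4 at 11.12, 11.73, 11.99 and 11.51.

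The regulators of proteasome genes were uneven. Nfe2l1, the factor that drives the coordinated induction of proteasome subunits when degradation is blocked, was at 4.67, 9.07, 8.16 and 6.49: below the floor in wild-type sham, highest in wild-type banded, and -1.67 with banding in IL-18 null. Stat3 was at 4.18, 8.93, 7.64 and 8.78, higher in both banded arrays. Keap1, which holds back the stress factor Nfe2l2, reached the floor in wild-type banded alone, at 5.63, 8.24, 5.60 and 5.58. Mafk, a small partner of both Nfe2l factors, was at 7.26, 7.03, 7.27 and 8.18. In this list 3 of 8 measured genes were higher and 0 lower in wild-type banding (median -0.26), and 1 of 8 was higher and 1 lower in IL-18 null (median 0.45).

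An additive fit of surgery and genotype over all 5158 measured genes, with limma's moderated test and Benjamini-Hochberg adjustment, called 0 of 38 members for either term at an adjusted p of 0.05, and 0% of all genes. Unadjusted p-values under 0.05 were found for 0 members in both terms, and for 98 genes in the banding term and 13 in the genotype term. Its error has 1 residual degree of freedom and measures how far the banding responses of the genotypes differ, not a replicate spread. After quantile normalization, the banding term called 46 genes (0.892%) and 1 member, Psmd8, at an adjusted p of 0.0351 by limma.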

How the data were processed

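Heart RNA was measured on 4 arrays of 22690 probe sets, 1 pooled array per group, grouped by the sample titles. Deposited by the authors were linear intensity values, made with GCRMA per the submitters' processing notes; its version and settings are not given in the sources used here. The values ranged from 1.5 to 43811.1, and the number of arrays limits their precision. Probe sets with 1 symbol in the platform annotation (20380) were kept, those with several (691) and control probe sets (64) left out. Each gene took the probe set with the highest mean log2 intensity over the 4 arrays; log2 values were floored at 6. Genes with at least 1 array at the floor or above entered a comparison.

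Array pairs were compared by log2 differences and 2-fold counts, with no test. The additive fit (surgery and genotype, trend) used limma 3.58.1 in R 4.3.3 on unfloored values. Both were run on simulated data with independent noise and the same banding effect in both genotypes. That setting holds no array that stands apart, so it does not cover this feature of these arrays. Members described were all those past 2-fold, the immunoproteasome and PA28 genes above the floor and, per class, the widest and narrowest ranges, and up to 4 genes per other list with the largest differences. Members and lists were chosen with earlier results of these data known. All 47 symbols matched RefSeq GRCm38.p6. Alternatives were floors at log2 5 and 7 or none, quantile normalization, centring of arrays, the mean of all probe sets, leaving out shared probe sets, a 1.5-fold threshold, an adjusted p of 0.1 and limma without trend.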

Additional observations from a re-analysis of the deposited data

Results flagged for a closer look

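Psmd7, a lid subunit, differed in opposite directions with banding: it was higher in wild-type banded than sham by 2.89 and lower in IL-18 null banded than sham by a log2 difference of -1.26. With 1 array per group the difference between the genotypes was not tested. Its probe set is the only one of the gene measured here, and the wild-type value rests on the wild-type sham array, which stands apart.

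The probe set that the annotation shares between Psme2 and Psme2b, the beta subunit of the PA28 activator and its copy, lies outside the comparisons because it has several symbols. It was at log2 7.97, 10.36, 10.19 and 9.43 on the wild-type (sham, banded) and the null (sham, banded) arrays. Its wild-type banding difference was 2.39, and its IL-18 null banding difference was -0.76, so the wild-type difference is of the size of those of Psmb5 and Psmd1.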

How the results depend on the processing

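No array could be left out, since each group has 1. No paired analysis was possible because each group has 1 array. Depth in the sense of signal over background limited 9 of 47 genes, which stayed below the floor on all arrays. Of 40 differences past 2-fold, 40 kept their side with a floor at log2 5, no floor, centred arrays or the highest linear mean, 35 with a floor at log2 7 and 37 with quantile normalization. Without shared probe sets 36 did, and the others had no value. With all probe sets averaged 29 of those still measured did, 4 no longer passed and 1 reversed: Psma1 in wild-type banding, at -0.70. The mean includes its probe sets that lie below the floor on all 4 arrays. In wild-type banding 16 to 23 members were higher over all alternatives; 1 was lower with quantile normalization and 4 at 1.5-fold. In IL-18 null banding 0 were higher and 1 lower with a floor at log2 7, 0 were lower with the mean of all probe sets, and 2 were higher at 1.5-fold. The median of that comparison changed sign with centred arrays, at -0.01. At 1.5-fold 1 was lower between the sham arrays, and 1 was higher and 5 lower between the banded arrays; 5 were also lower with the highest linear mean, an alternative added after the data were seen. For the difference of responses the number upwards was 2 with centred arrays, 2 with the mean of all probe sets, 0 without shared probe sets and 8 at 1.5-fold. The additive fit called 1 member for banding with quantile normalization. The immunoproteasome minus constitutive difference moved with the floor, since Psmb8 and Psmb9 lie below it: on the wild-type (sham, banded) and the null (sham, banded) arrays it was -6.19, -6.46, -6.83 and -6.26 with no floor and -2.80, -4.53, -4.47 and -4.35 with a floor at log2 7. With a floor at log2 5 it was -4.80 in wild-type sham and -6.12 in IL-18 null sham.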
